A study of Mus musculus with 8 samples.

Results

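The 9 genes described here encode the isozymes of 4 enzymes of glycolysis, namely hexokinase (Hk1 and Hk2), phosphofructokinase (Pfkm, Pfkl and Pfkp), pyruvate kinase (Pklr and Pkm) and lactate dehydrogenase (Ldha and Ldhb). They were taken by gene symbol from a table of 27179 mouse genes, in which each symbol was found, by a rule that uses no measured value. All 9 passed the filter on low values, with Hk2 above 1 CPM (count per 1000000 reads, on the library sizes scaled by the authors) in 7 libraries, Pklr in 4 and each other member in 8.

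Glycolysis breaks glucose down to pyruvate, and the hexokinase, phosphofructokinase and pyruvate kinase steps are its practically irreversible, regulated steps. Each is catalysed by isozymes from separate genes that differ in substrate affinity and in allosteric control, and organs carry different sets of them. Lactate dehydrogenase interconverts pyruvate and lactate, and its subunits, named A or M for muscle and B or H for heart, mix into tetramers. Brain depends largely on glucose, heart oxidises fatty acids and lactate, and liver and kidney cortex can also run the pathway backwards to make glucose.

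The study compared total RNA from formalin-fixed, paraffin-embedded (FFPE) tissue with that from flash-frozen tissue in 4 mouse organs. The 8 groups were FFPE brain, heart, kidney and liver and frozen brain, heart, kidney and liver, with 1 library each. FFPE tissue was fixed in 10% formalin, and RNA of all libraries was isolated with Trizol and sheared for 6 min with ultrasound. The labels state neither strain, age and sex nor whether tissue of several animals was pooled, and they name no allele or drug for any group. Each group having 1 library, every comparison of a gene used the same spread, taken from an additive model of organ and preparation over all libraries. That spread is how the FFPE minus frozen difference varied between organs, moderated by the spread of the other genes. It is not measured within an organ. P-values are therefore set against this spread between libraries, which may be technical.

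The libraries held 10180972 to 20526813 reads in genes, and 3 reads stood for 0.119 to 0.292 CPM. Defining markers were high in the labelled organs. The 6 neuron genes summed to 1417 CPM in FFPE and 1006 CPM in frozen brain, 6 cardiomyocyte genes to 24575 and 27664 CPM in FFPE and frozen heart, 5 proximal tubule genes to 6528 and 9958 CPM in FFPE and frozen kidney, and 6 hepatocyte genes to 43968 and 50048 CPM in FFPE and frozen liver. Sex-linked genes and genes of brain regions differed between preparations. All 4 FFPE libraries held both Xist (4652 to 24213 reads) and the Y-linked Ddx3y (224 to 450 reads), whereas frozen heart, kidney and liver held 1 to 7 Xist reads and 525 to 639 Ddx3y reads, and frozen brain held 13170 Xist reads and 0 Ddx3y reads. In FFPE brain the cerebellar genes Gabra6, Pcp2 and Cbln3 had 742, 98 and 1069 reads, against 0, 0 and 4 in frozen brain. These genes were looked up after their values were seen, and what part such differences have in the results below was not tested.

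Hexokinase traps glucose in the cell by phosphorylating it. In brain and kidney nearly all of it was Hk1, in heart most was Hk2, and in liver both were low. Hk1, the broadly expressed form that binds to mitochondria, stood at 91.5 CPM in FFPE and 114 CPM in frozen brain, at 86.1 and 73.7 CPM in FFPE and frozen heart, at 61.7 and 61.2 CPM in FFPE and frozen kidney, and at 3.62 and 5.04 CPM in FFPE and frozen liver. The liver libraries lay far below the other 6. In whole organs, fewer cells of a type and less RNA per cell cannot be told apart. The order was brain, heart, kidney, liver. Brain exceeded heart by only 0.36 ± 0.20 (log2 difference ± SE, limma adjusted p = 0.149) and heart exceeded kidney by 0.37 ± 0.20 (limma adjusted p = 0.167). These neighbours did not differ beyond the spread of the model, but brain exceeded kidney by 0.73 ± 0.20 (limma adjusted p = 0.0117). Kidney exceeded liver by 3.85 ± 0.20 (limma adjusted p = 3.65e-06), a 14.4-fold difference.

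Hk2, the insulin-regulated form of muscle and fat, stood at 213 and 238 CPM in FFPE and frozen heart, at 3.32 and 2.56 CPM in FFPE and frozen brain, at 3.74 and 0.79 CPM in FFPE and frozen kidney, and at 1.96 and 1.87 CPM in FFPE and frozen liver. Heart stood apart from every other organ, with 2804 and 2442 reads in its FFPE and frozen libraries against 13 to 82 reads in the other 6. Heart exceeded brain, the next organ, by 6.27 ± 0.52 on the log2 scale (limma adjusted p = 2.54e-05). Brain, liver and kidney could not be ordered, with limma adjusted p of 0.336 for brain minus liver and 0.841 for liver minus kidney. The RefSeq promoter of Hk2 is shown because this gene had the largest contrast between heart and the other organs among the members. It covers the 250 bases before the start at chr6:82774455-82774704 on the minus strand (GRCm38.p6), with each match to a searched motif in capitals.
Hk2: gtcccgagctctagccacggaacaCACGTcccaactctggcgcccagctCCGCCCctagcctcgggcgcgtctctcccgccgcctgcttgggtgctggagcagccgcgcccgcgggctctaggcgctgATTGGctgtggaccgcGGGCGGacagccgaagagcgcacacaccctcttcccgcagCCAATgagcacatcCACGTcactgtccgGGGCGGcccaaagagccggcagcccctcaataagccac
The motifs were searched on both strands: the GC box GGGCGG, the CCAAT box CCAAT, the TATA box TATAAA, the E-box CACGTG and the hypoxia response core ACGTG. Of 32851 promoter windows of this length, 32.7% held the GC box, 33.9% the CCAAT box, 12.4% the TATA box, 6.02% the E-box and 16.6% the hypoxia response core. Every E-box contains the hypoxia response core, on each strand. The Hk2 window held 3 GC boxes, 2 CCAAT boxes and 2 hypoxia response cores, and 69.6% of its bases were G or C. A match describes the letters only, and which start was used was not measured.

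Levels of different genes were compared per kilobase of the longest coding transcript, and each isozyme's share is its part of the sum over the members of its enzyme. Hk1 made up 97.3% of Hk1 and Hk2 in FFPE brain (exact 95% interval 96.5 to 97.9, which covers counting error only, since such reads are not each a separate molecule) and 98.3% in frozen brain. It made up 95.5% and 99.0% in FFPE and frozen kidney, and 70.4% and 77.6% in FFPE and frozen liver, where the 80 and 71 reads of both genes left intervals of 59.7 to 79.7 and 67.2 to 86.3. In heart Hk2 led, with 65.7% in the FFPE and 71.5% in the frozen library. Their sum was largest in heart, at 58.7 and 60.4 CPM per kilobase in FFPE and frozen tissue, and smallest in liver, at 1.20 and 1.52.

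The sums hold Hk1 and Hk2 only, and other hexokinase genes are not part of them. Of these, Hk3, a form of white blood cells, had 61 and 36 reads in FFPE and frozen liver and 5 to 19 reads in each of the other 6 libraries. Hkdc1, a further gene of the family, had 50 reads in FFPE and 13 in frozen brain and at most 24 reads elsewhere.

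**Figure D1:**
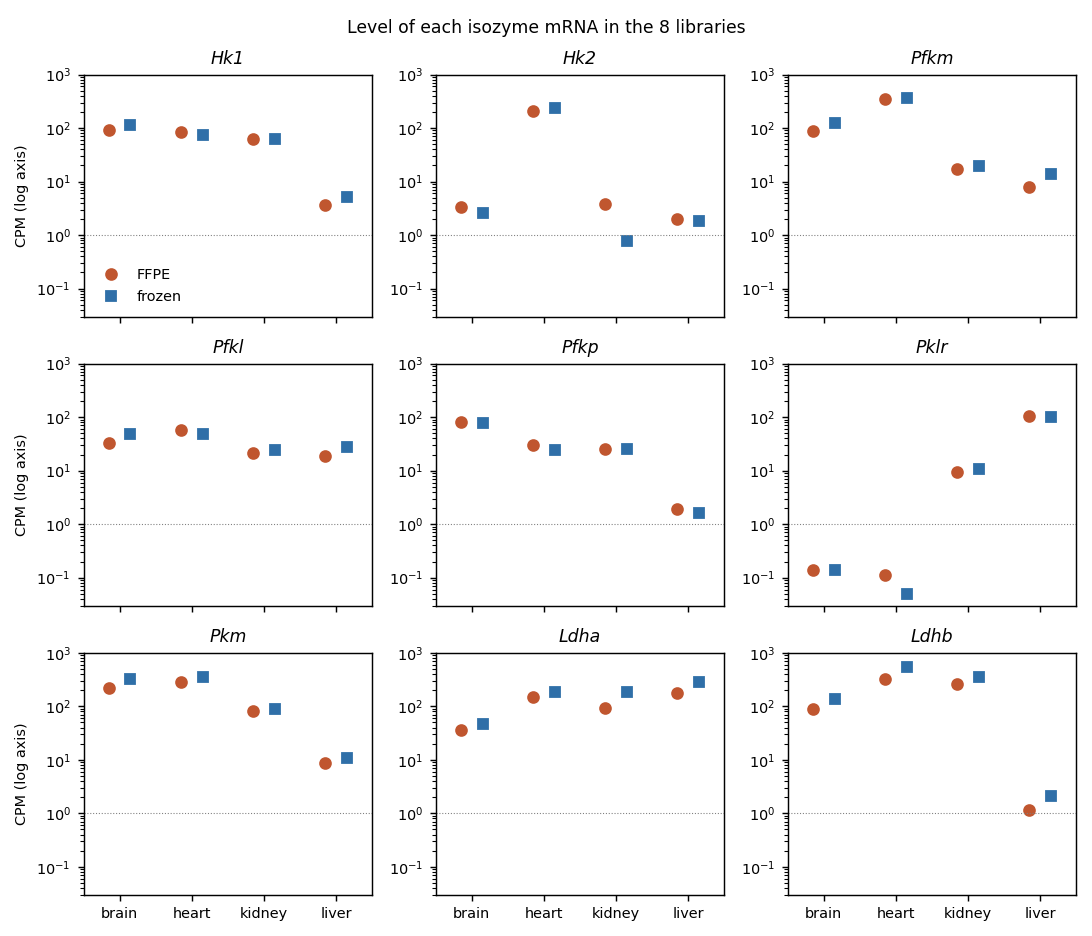
Level of each of the 9 isozymes in CPM on a log axis, by organ, with 1 point for the FFPE and 1 for the frozen library and a dotted line at 1 CPM. Hk2 stands at 213 and 238 CPM in FFPE and frozen heart and at most 3.74 CPM elsewhere, Pklr is above the line in kidney and liver and below it in brain and heart, where its points include the 0.5 reads added to each count, and Ldhb is at 1.14 and 2.06 CPM in FFPE and frozen liver.

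Phosphofructokinase, the main control point of glycolysis, was mostly the muscle form Pfkm in heart, mostly the liver form Pfkl in liver, and a mixture in brain and kidney. Pfkm stood at 351 and 360.1 CPM in FFPE and frozen heart, at 89.3 and 126 CPM in FFPE and frozen brain, at 17.5 and 19.2 CPM in FFPE and frozen kidney, and at 8.03 and 14.1 CPM in FFPE and frozen liver. The ranges of the 4 organs did not overlap. It was the only member whose 3 steps in the order of organs all passed the test, with heart over brain by 1.75 ± 0.20 (limma adjusted p = 0.000143), brain over kidney by 2.53 ± 0.20 (1.89e-05) and kidney over liver by 0.79 ± 0.20 (0.0143) on the log2 scale.

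Pfkl varied least of the members. It stood at 58.5 and 49.3 CPM in FFPE and frozen heart, at 32.2 and 48.8 CPM in FFPE and frozen brain, at 19.1 and 27.9 CPM in FFPE and frozen liver, and at 21.5 and 24.6 CPM in FFPE and frozen kidney. Brain exceeded liver by 0.78 ± 0.22 (log2, limma adjusted p = 0.0127). Heart and brain (0.44 ± 0.22, limma adjusted p = 0.123) and liver and kidney (0.01 ± 0.22, limma adjusted p = 0.977) did not differ beyond the spread of the model. The liver libraries of this liver form overlapped those of kidney and lay below those of heart and brain.

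Pfkp, the platelet form, which is also found in brain, stood at 79.6 and 78.1 CPM in FFPE and frozen brain, at 29.99 and 24.1 CPM in FFPE and frozen heart, at 25.1 and 25.4 CPM in FFPE and frozen kidney, and at 1.89 and 1.58 CPM in FFPE and frozen liver. Brain lay above heart by 1.55 ± 0.18 (log2, limma adjusted p = 0.000152), heart and kidney overlapped, and kidney lay above liver by 3.87 ± 0.18 (limma adjusted p = 2.83e-06). The liver values rest on 27 reads in the FFPE and 16 in the frozen library.

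Per kilobase, Pfkm made up 84.2% and 86.8% of phosphofructokinase in FFPE and frozen heart and 52.7% and 57.8% in FFPE and frozen brain. Pfkp took 32.6% and 24.9% in FFPE and frozen brain, and 5.46% and 2.999% in FFPE and frozen liver. Pfkl took 61.2% and 58.7% in FFPE and frozen liver, against 9.17% to 17.3% in the 4 heart and brain libraries. In kidney the isozymes were close to equal, with 34.0%, 32.1% and 33.9% for Pfkm, Pfkl and Pfkp in the FFPE library and 34.4%, 34.0% and 31.7% in the frozen one. Which of them leads in kidney depends on the length used, since Pfkp led in both libraries without a length correction (39.2% and 36.8% in FFPE and frozen kidney) and Pfkm with the union of all exons (50.7% in each). In frozen liver the exon union put Pfkm at 49.5% and Pfkl at 49.1%. The sum of the 3 genes was 145 and 144 CPM per kilobase in FFPE and frozen heart, 58.9 and 75.7 in FFPE and frozen brain, 17.9 and 19.4 in FFPE and frozen kidney, and 8.37 and 12.7 in FFPE and frozen liver.

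**Figure D2:**
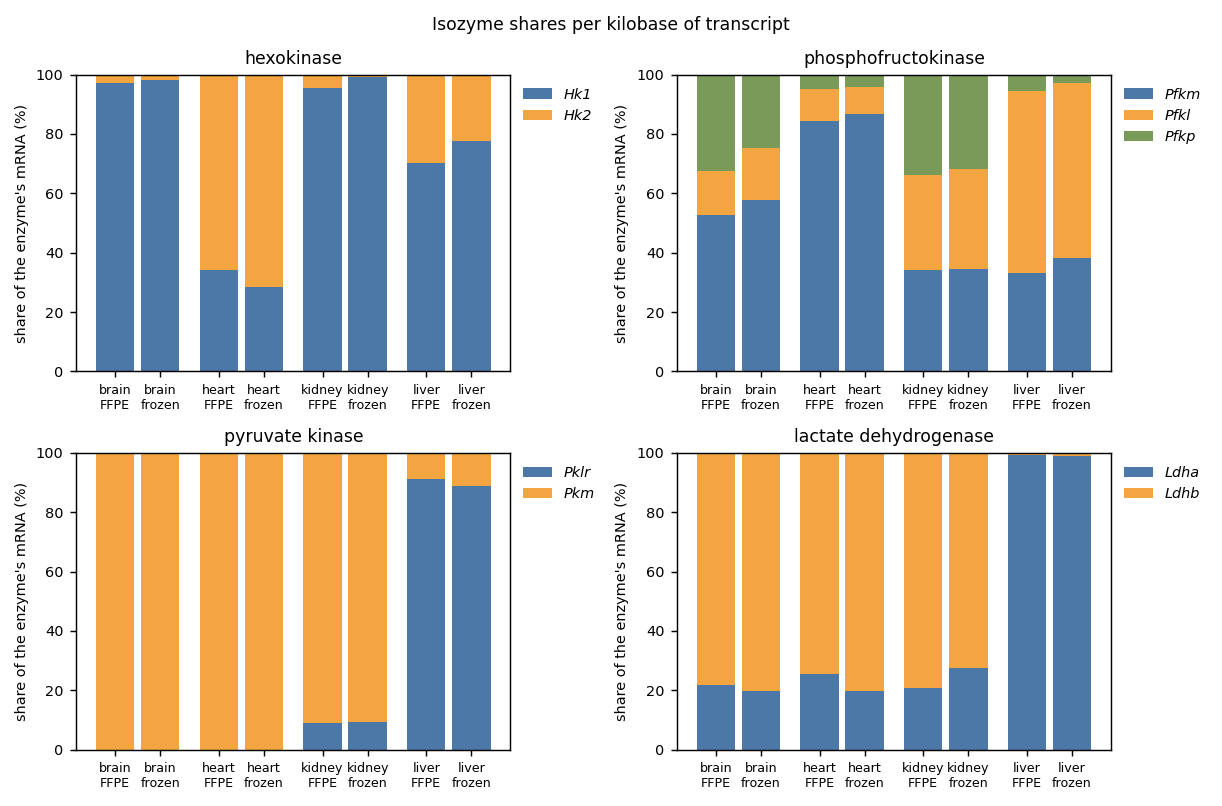
Share of each isozyme in the sum over its enzyme's members, per kilobase and in percent, as stacked bars for the 8 libraries, with the FFPE bar left of the frozen bar in each organ. Heart differs from the rest in hexokinase, liver in pyruvate kinase and lactate dehydrogenase, and the bars of an organ differ by at most 7.74 percentage points.

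Pyruvate kinase makes pyruvate at the end of the pathway. Pklr, which encodes the liver and red-cell forms from separate starts, was the pyruvate kinase of liver, while Pkm, which encodes the muscle forms, led in the other 3 organs. Pklr stood at 106 and 100.3 CPM in FFPE and frozen liver and at 9.45 and 10.7 CPM in FFPE and frozen kidney. It had 2 and 3 reads in FFPE and frozen brain and 1 and 0 reads in FFPE and frozen heart, at or below the 3-read floor. Liver exceeded kidney by 3.35 ± 0.50 (log2, limma adjusted p = 0.000835), a 10.2-fold difference. Brain and heart lie at the floor, where a fitted difference depends on the 0.5 reads the authors added, so no fold is given for them. The 7 measured erythroid genes summed to 1874 and 2096 CPM in FFPE and frozen heart, with Klf1 at 0 reads. Their sums were 83.6 and 225.6 CPM in FFPE and frozen kidney, 76.9 and 110.2 CPM in FFPE and frozen liver, and 23.7 and 29.96 CPM in FFPE and frozen brain. The part of red cells in the Pklr values was not tested.

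Pkm stood at 285 and 357 CPM in FFPE and frozen heart, at 218 and 326 CPM in FFPE and frozen brain, at 81.4 and 88.7 CPM in FFPE and frozen kidney, and at 8.58 and 10.7 CPM in FFPE and frozen liver. Heart and brain overlapped, and heart minus brain was 0.26 ± 0.16 (log2, limma adjusted p = 0.187). Brain exceeded kidney by 1.65 ± 0.16 (limma adjusted p = 4.21e-05) and kidney exceeded liver by 3.15 ± 0.16 (limma adjusted p = 3.31e-06). Values per gene do not separate the splice forms of Pkm.

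Per kilobase, Pklr made up 91.2% of pyruvate kinase in FFPE liver (exact 95% interval 89.6 to 92.6) and 88.7% in frozen liver (86.6 to 90.6). It made up 8.87% in FFPE kidney (7.73 to 10.1) and 9.21% in frozen kidney (7.95 to 10.6), and at most 0.155% in brain and heart at the upper ends of the intervals. The ratio of the isozymes thus changed sides, with Pkm 10.3-fold and 9.85-fold above Pklr in FFPE and frozen kidney and Pklr 10.3-fold and 7.85-fold above Pkm in FFPE and frozen liver. The sum of both genes varied less across organs than that of the other enzymes, at 117 and 147 CPM per kilobase in FFPE and frozen heart, 89.7 and 134 in FFPE and frozen brain, 36.7 and 40.2 in FFPE and frozen kidney, and 39.9 and 39.0 in FFPE and frozen liver. Per kilobase of the longest coding transcript, liver thus carried about as much pyruvate kinase RNA as kidney, from the other gene. This depends on the length used. The union of all exons is 5001 bases for Pkm and 3236 for Pklr, against 2432 and 2902 for the longest coding transcripts. With the union the sum, mostly Pkm in kidney and mostly Pklr in liver, would fall further in kidney than in liver.

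The promoters of these genes are shown because the genes replaced each other between organs. The window of Pklr lies at chr3:89136373-89136622 on the plus strand, before the downstream of its 2 RefSeq starts, and that of Pkm at chr9:59656326-59656575 on the plus strand, before the upstream of its 2 starts (GRCm38.p6). Capitals mark the same motifs as before.
Pklr: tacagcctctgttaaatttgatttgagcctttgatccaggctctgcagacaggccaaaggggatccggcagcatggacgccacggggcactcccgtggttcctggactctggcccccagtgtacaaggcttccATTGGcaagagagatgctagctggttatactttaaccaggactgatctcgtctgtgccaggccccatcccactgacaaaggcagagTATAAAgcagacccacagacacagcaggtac
Pkm: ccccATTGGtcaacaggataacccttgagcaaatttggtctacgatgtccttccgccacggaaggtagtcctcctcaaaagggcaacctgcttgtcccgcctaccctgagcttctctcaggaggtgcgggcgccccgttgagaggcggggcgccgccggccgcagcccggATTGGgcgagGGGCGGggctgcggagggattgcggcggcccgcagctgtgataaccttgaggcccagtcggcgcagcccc
The Pklr window held a TATA box 31 bases before the start and a CCAAT box at 117. The Pkm window held no TATA box, but 1 GC box at 70 and 2 CCAAT boxes at 80 and 246 bases before the start. Of the bases, 54.4% were G or C in the Pklr and 66.4% in the Pkm window, against a median of 52.4% over all windows.

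Lactate dehydrogenase was mostly Ldhb in brain, heart and kidney and nearly all Ldha in liver. Ldha, the subunit linked to lactate production, stood at 175 and 287 CPM in FFPE and frozen liver, at 152 and 181 CPM in FFPE and frozen heart, at 93.8 and 188 CPM in FFPE and frozen kidney, and at 35.2 and 45.8 CPM in FFPE and frozen brain. Liver, heart and kidney overlapped and did not differ beyond the spread of the model as neighbours (0.43 ± 0.20, limma adjusted p = 0.0958, for liver minus heart and 0.32 ± 0.20, limma adjusted p = 0.229, for heart minus kidney, log2). Kidney minus liver, compared directly, was -0.76 ± 0.20 (limma adjusted p = 0.0143). Kidney exceeded brain by 1.72 ± 0.20 (limma adjusted p = 0.000114).

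Ldhb, the subunit linked to lactate use, stood at 317 and 530.4 CPM in FFPE and frozen heart, at 257 and 354 CPM in FFPE and frozen kidney, at 90.6 and 134 CPM in FFPE and frozen brain, and at 1.14 and 2.06 CPM in FFPE and frozen liver. The liver libraries held 16 and 21 Ldhb reads, against 1622 to 6056 in the other 6. Heart and kidney overlapped (0.44 ± 0.16, limma adjusted p = 0.0505), kidney exceeded brain by 1.45 ± 0.16 (limma adjusted p = 7.94e-05), and brain exceeded liver by 6.17 ± 0.16 on the log2 scale (limma adjusted p = 1e-07). This last step amounted to 72.0-fold, beside 77.2-fold for Hk2 between heart and brain.

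Per kilobase, Ldhb made up 78.2% and 80.3% of lactate dehydrogenase in FFPE and frozen brain, 74.4% and 80.3% in FFPE and frozen heart, and 79.2% and 72.4% in FFPE and frozen kidney. In FFPE and frozen liver it made up 0.89% and 0.99% (exact 95% intervals 0.50 to 1.40 and 0.60 to 1.48). Ldhb thus exceeded Ldha by 2.63-fold to 4.09-fold in the 6 libraries of brain, heart and kidney, and Ldha exceeded Ldhb by 111-fold in FFPE and 99.8-fold in frozen liver. The Ldhb share differed little between brain, heart and kidney although the sum of both genes did not, at 88.9 and 128 CPM per kilobase in FFPE and frozen brain against 327 and 507 in FFPE and frozen heart. Ldhc, the testis subunit, had 0 or 1 reads in each library, and the related Ldhal6b had 0.439 to 1.18 CPM.

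The promoters of both genes are shown because Ldha was high in liver, heart and kidney, while Ldhb was low in liver and high in heart and kidney. The Ldha window lies at chr7:46845554-46845803 on the plus strand, before the upstream of 2 RefSeq starts, and the Ldhb window at chr6:142507958-142508207 on the minus strand (GRCm38.p6), with the same motifs in capitals.
Ldha: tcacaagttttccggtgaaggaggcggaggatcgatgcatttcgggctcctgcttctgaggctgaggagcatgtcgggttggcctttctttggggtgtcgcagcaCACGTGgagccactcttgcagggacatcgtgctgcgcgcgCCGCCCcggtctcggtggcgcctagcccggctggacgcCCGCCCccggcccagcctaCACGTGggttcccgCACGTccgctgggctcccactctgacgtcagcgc
Ldhb: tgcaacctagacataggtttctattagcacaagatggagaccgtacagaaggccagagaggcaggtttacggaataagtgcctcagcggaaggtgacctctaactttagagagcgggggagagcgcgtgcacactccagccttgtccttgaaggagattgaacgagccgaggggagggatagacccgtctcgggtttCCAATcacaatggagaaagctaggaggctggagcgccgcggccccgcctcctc
The Ldha window held 2 E-boxes, 145 and 48 bases before the start, a further hypoxia response core at 34, and 2 GC boxes at 105 and 67. The Ldhb window held none of these motifs and 1 CCAAT box 53 bases before the start. G or C made up 67.2% of the bases of the Ldha and 56.4% of the Ldhb window.

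Set against the mean of the other 3 organs, heart carried more of nearly every member and liver less. A low organ lowers this log2 mean, so a member called higher in an organ need not be highest there. Of the members called higher in heart, only Hk2 and Pfkm passed against each other organ, and Pfkp lay 1.55 below brain on the log2 scale. Outside heart, Pfkp in brain and Pklr in liver also exceeded each other organ, with Pklr at the floor in brain and heart. In heart 8 of 9 members were higher and 1, Pklr, was lower at a limma adjusted p under 0.05, where 21.5% of 15819 tested genes were higher and 28.7% lower. In liver 2 were higher, Pklr and Ldha, and 7 were lower, where 27.3% of all genes were higher and 35.2% lower. In brain Hk1, Pfkm, Pfkp, Pkm and Ldhb, 5 of 9, were higher and Hk2, Pklr and Ldha, 3 of 9, lower, with backgrounds of 34.7% and 31.6%. In kidney Hk1, Pfkp, Pklr and Ldhb, 4 of 9, were higher and Hk2, Pfkm and Pfkl, 3 of 9, lower, with backgrounds of 20.3% and 19.9%. The median log2 difference of the members was 1.41 in heart against -0.19 over all tested genes, -3.06 in liver against -0.13, 0.94 in brain against 0.05, and 0.22 in kidney against -0.04. The 4 comparisons share all libraries, and Pklr entered them only through its kidney and liver values.

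Leaving aside Pklr, whose brain and heart reads were at the floor, the steepest of these differences were those of Ldhb in liver at -7.29 ± 0.13 (log2, limma adjusted p = 5.07e-08), Hk2 in heart at 6.73 ± 0.43 (6.62e-06), Pfkp in liver at -4.44 ± 0.15 (2.54e-07), Pkm in liver at -4.34 ± 0.13 (1.84e-07) and Hk1 in liver at -4.22 ± 0.16 (4.13e-07). Members that did not pass were Pfkl in brain (0.38 ± 0.18, limma adjusted p = 0.0962) and Pkm and Ldha in kidney (-0.14 ± 0.13 and 0.22 ± 0.16, limma adjusted p = 0.433 and 0.328). Several of the smaller calls rest on 1 library. Without the FFPE heart library Ldha in heart had 0.42 (limma adjusted p = 0.116), without the FFPE liver library Pfkl in liver had -0.48 (0.173), without the frozen kidney library Pfkp in kidney had 0.60 (0.126), without the FFPE or frozen brain library Hk2 in brain had -1.47 or -1.80 (0.104 or 0.0631), and without the FFPE or frozen kidney library Pfkl in kidney had -0.73 or -0.62 (0.0961 or 0.174). Without both brain libraries Ldha in heart was -0.06 instead of 0.65.

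Directions also depend on the authors' scaling of the libraries. Without their factors the median of all tested genes moved to 0.98 in brain, -1.03 in heart, 0.20 in kidney and -0.46 in liver, and genes called higher made up 78.6%, 15.0%, 64.0% and 30.1% of all calls in these organs instead of 52.3%, 42.8%, 50.5% and 43.7%. In heart 6 of 9 members were then called, 5 of them higher, and Pfkp and Ldha turned to -0.01 and -0.20. Leaving the factors out shifts all genes of a comparison by the same amount, so it cannot change a member's distance from the median of all genes, and these turns reflect that shift alone. Against the median, Pfkp and Ldha in heart lay at 1.02 and 0.83.

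Over the 27 steps between organs neighbouring in a member's order, 15 passed at a limma adjusted p under 0.05 and 12 did not. Of all tested genes, 67.1% differed between brain and liver, 58% between brain and heart, 56.6% between brain and kidney, 53.1% between heart and liver, 41.2% between kidney and liver and 40.9% between heart and kidney. Neighbours are the closest organs of each gene, so their share is not set against these backgrounds.

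FFPE and frozen tissue were compared with organ as a term in the model. Ldhb was the only member called, lower in FFPE tissue by 0.66 ± 0.11 on the log2 scale (limma adjusted p = 0.0251, lower in 4 of 4 organs), that is 0 of 9 higher and 1 of 9 lower, where 1.2% of all tested genes were higher and 2.18% lower. At an unadjusted p under 0.05, 4 members were lower and 0 higher, but the share of all tested genes at this threshold is not given. On the recovered reads limma's voom called 2 members lower, Ldhb and Ldha, and 0 higher. It called more of all 15819 tested genes as well, 835 lower and 572 higher, against 345 and 190 in the main model. The Ldhb differences were -0.57 in brain, -0.74 in heart, -0.46 in kidney and -0.86 in liver. The call depends on the setting and on the libraries. Its adjusted p was 0.0681 with quantile normalisation, 0.178 without a variance trend and 0.0765 on log2(CPM + 5), and 0.102 to 0.12 when any brain, kidney or liver library was left out. Without the authors' scaling factors the difference was -0.19 (limma adjusted p = 0.412), where the median of all tested genes moved to 0.54 from 0.07 and genes called higher made up 98.04% of calls instead of 35.5%.

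Ldha followed at -0.59 ± 0.14 (limma adjusted p = 0.0619), with differences of -0.38 in brain, -0.26 in heart, -1.001 in kidney and -0.71 in liver. Pkm had -0.34 ± 0.11 (limma adjusted p = 0.131) and Pfkm -0.37 ± 0.14 (0.193), each negative in 4 of 4 organs. Without the scaling factors, which shifts all genes alike, they were at 0.14 and 0.10, and their distances from the median of all genes were -0.41 and -0.44 with or without the factors. Hk1 at -0.14 ± 0.14, Pfkl at -0.27 ± 0.16, Pfkp at 0.15 ± 0.13 and Pklr at 0.28 ± 0.36 had adjusted p of 0.353 to 0.685 in the same limma model. The median over the members was -0.27, against 0.07 over all tested genes. An exact sign-flip permutation test of a single gene over 4 organs cannot reach 0.05.

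Hk2 in kidney had the largest gap between the preparations of an organ among the members with over 3 reads in each library. Its 82 reads in the FFPE and 13 in the frozen kidney library amount to a 4.73-fold higher level, 2.24 on the log2 scale, whereas the other organs had 0.38 in brain, -0.16 in heart and 0.07 in liver. Over all organs the difference was 0.63 ± 0.37 (limma adjusted p = 0.361). Without the scaling factors it was 1.10 (limma adjusted p = 0.0444), but this setting shifts all genes alike. The distance of Hk2 from the median of all genes was 0.56 with or without the factors. Markers of fat and skeletal muscle, tissues known to express Hk2, were also higher in the FFPE kidney library. The 4 adipocyte genes summed to 9.56 CPM in FFPE and 0.293 CPM in frozen kidney, where Plin1 and Lep were at 0 reads. The 5 skeletal muscle genes summed to 3.38 CPM in FFPE and 0.322 CPM in frozen kidney, where Myh1, Tnnt3 and Actn3 were at 0 reads. The 5 distal nephron genes summed to 2081 and 2527 CPM in FFPE and frozen kidney, but did not move alike. Umod had 724 and 1330 CPM in FFPE and frozen kidney, Aqp2 60.6 and 35.5 CPM, and Calb1 196 and 153 CPM. The skeletal muscle sum was also higher in FFPE than in frozen brain (4.27 and 0.972 CPM) and in FFPE than in frozen heart (13.7 and 1.51 CPM), where the Hk2 differences were 0.38 and -0.16, while the adipocyte sum was at most 0.672 CPM in the 6 libraries of these organs and liver. Their part in the Hk2 gap was not tested.

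**Figure D3:**
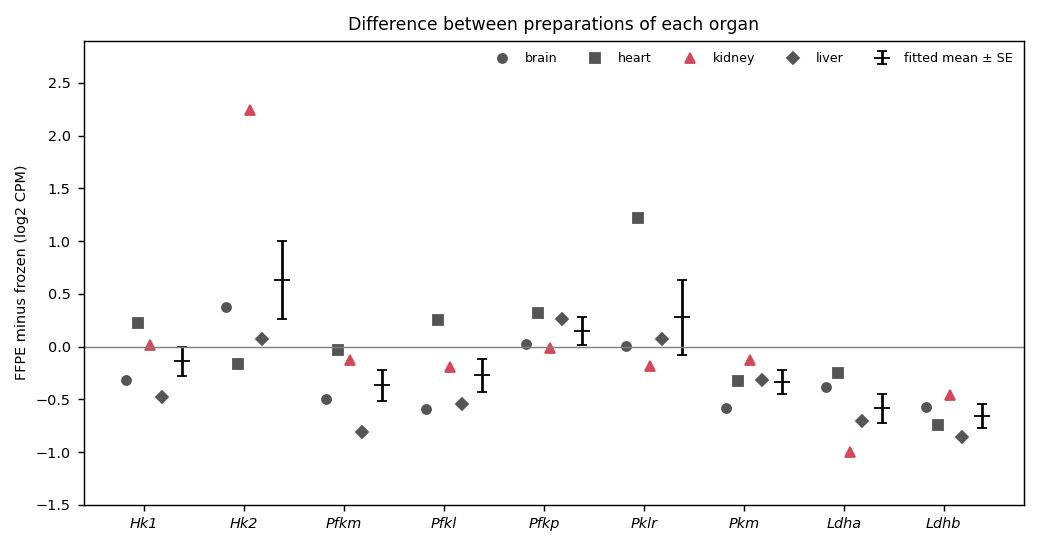
FFPE minus frozen difference in log2 CPM for each member, with 1 point per organ (kidney in red) and the fitted mean with its SE. The 4 points of Ldhb lie between -0.86 and -0.46, the kidney point of Hk2 lies at 2.24, and the heart point of Pklr rests on 1 and 0 reads in the FFPE and frozen library.

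The shares of the isozymes moved little between preparations beside their range across organs. The largest gap was that of Pfkp in brain, 7.74 percentage points higher in the FFPE library, and the next that of Hk1 in liver, -7.27 points. The mean shares of a member in the 4 organs ranged over 28.5 points for Pfkp and up to 89.9 points for Pklr. In every organ the leading isozyme was the same in the FFPE and the frozen library, except with the exon union length in liver, where Pfkl led in FFPE and Pfkm in frozen tissue.

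Other genes of the pathway were taken from lists of its remaining steps, its control, the fate of pyruvate and its regulators. Of 14 genes of the other steps of glycolysis, 0 were higher and 4 lower in FFPE than in frozen tissue, with a median of -0.44, beside 1.2% higher, 2.18% lower and a median of 0.07 over all tested genes. These were Tpi1 at -0.59 ± 0.12 (limma adjusted p = 0.0363), Gapdh at -0.95 ± 0.18 (0.0357), Pgk1 at -0.75 ± 0.10 (0.0141) and Eno1 at -0.71 ± 0.12 (0.0265), enzymes of the steps between phosphofructokinase and pyruvate kinase. Without the variance trend 0 of 15819 tested genes were called for FFPE minus frozen, so these calls depend on that setting. All such calls also vanished with any kidney or liver library left out. The same limits hold for Pcx, Mpc1 and Mpc2 below. Eno2, the neuronal enolase, had 152 and 203 CPM in FFPE and frozen brain, against at most 2.09 CPM elsewhere. Eno3, the muscle enolase, had 309 and 395 CPM in FFPE and frozen heart, against 1.65 to 3.12 CPM elsewhere. Of the 14 genes, 5 were higher and 6 lower in brain, 6 higher and 4 lower in heart, 3 higher and 3 lower in kidney, and 4 higher and 6 lower in liver than in the other organs. Over all tested genes the shares higher and lower were 34.7% and 31.6% in brain, 21.5% and 28.7% in heart, 20.3% and 19.9% in kidney, and 27.3% and 35.2% in liver.

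Of 12 genes that control the hexokinase and phosphofructokinase steps or reverse them, 0 were higher and 1 lower in FFPE tissue (1.2% and 2.18% over all tested genes), with a median of 0.17. The gene that was lower, Pcx, encodes pyruvate carboxylase, which starts glucose synthesis (-0.64 ± 0.12, limma adjusted p = 0.0347). Pck1, an enzyme of glucose synthesis, had 1913 and 1493 CPM in FFPE and frozen liver and 511 and 515 CPM in FFPE and frozen kidney, and G6pc, which releases free glucose, had 427 and 460 CPM in FFPE and frozen liver and 166 and 241 CPM in FFPE and frozen kidney. Both were at most at 0.569 CPM in brain and heart. By organ, 3 of the 12 were higher and 7 lower in brain (34.7% and 31.6% over all tested genes), 4 and 6 in heart (21.5% and 28.7%), 5 and 4 in kidney (20.3% and 19.9%), and 6 and 3 in liver (27.3% and 35.2%).

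Of 15 genes for the fate of pyruvate and lactate, 0 were higher and 2 lower in FFPE tissue (1.2% and 2.18% over all tested genes), with a median of -0.20. Both encode subunits of the mitochondrial pyruvate carrier, Mpc1 at -1.06 ± 0.14 (limma adjusted p = 0.0141) and Mpc2 at -0.79 ± 0.16 (0.0411). In heart 12 of the 15 were higher and 3 lower than in the other organs (21.5% and 28.7% over all tested genes), and in brain 2 were higher and 12 lower (34.7% and 31.6%). Kidney had 4 higher and 5 lower (20.3% and 19.9%) and liver 5 higher and 6 lower (27.3% and 35.2%). Pdk4, a kinase that switches pyruvate dehydrogenase off, had 159 and 187 CPM in FFPE and frozen heart, a difference from the other organs of 3.86 ± 0.28 (log2, limma adjusted p = 1.33e-05). Pdp1, the phosphatase that switches it on, had 83.8 and 62.3 CPM in FFPE and frozen brain and 0.999 and 0.720 CPM in FFPE and frozen liver. Pdk3, another kinase of the complex, had 0.448 and 0.816 CPM in FFPE and frozen liver, against 1.61 to 25.7 CPM elsewhere.

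Of 18 regulators, 0 were higher and 0 lower in FFPE tissue (1.2% and 2.18% over all tested genes), with a median of 0.07, equal to that of all tested genes. By organ, 4 were higher and 12 lower in brain (34.7% and 31.6% over all tested genes), 4 higher and 6 lower in heart (21.5% and 28.7%), 7 higher and 0 lower in kidney (20.3% and 19.9%), and 8 higher and 3 lower in liver (27.3% and 35.2%). Mlxipl, which encodes the glucose-sensing activator of liver-type pyruvate kinase transcription, had 314 and 225 CPM in FFPE and frozen liver, 72.3 and 57.7 CPM in FFPE and frozen kidney, 21.9 and 13.3 CPM in FFPE and frozen heart, where Pklr had 1 and 0 reads, and 0.921 and 0.892 CPM in FFPE and frozen brain. Hnf4a, a factor of liver and kidney epithelium, had 507 and 442 CPM in FFPE and frozen liver and 334 and 401 CPM in FFPE and frozen kidney. In brain and heart it had at most 8 reads.

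**Figure D4:**
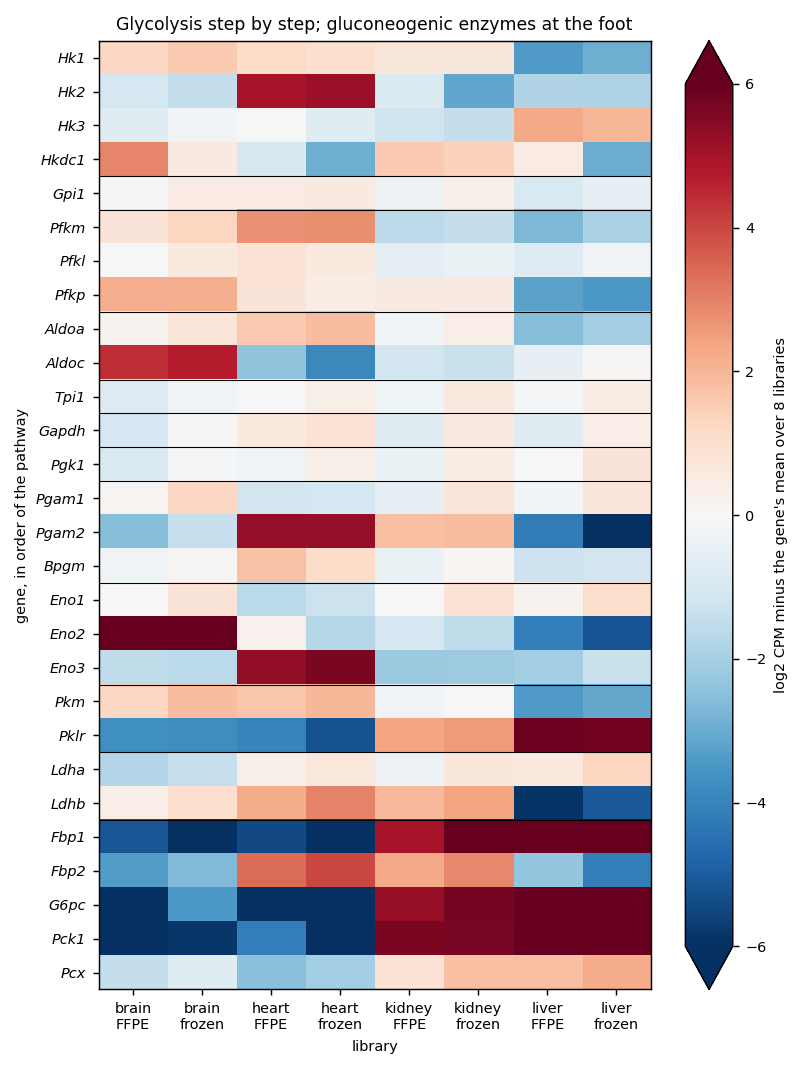
Heat map of log2 CPM minus each gene's mean over the 8 libraries, with genes in the order of the pathway, lines between steps and enzymes of glucose synthesis at the foot. Colours saturate at 6 and -6. Most steps with several isozymes change colour between organs, such as Hk2 and Eno3 in heart, Eno2 in brain and Pklr in kidney and liver.

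The genes whose levels across the 8 libraries were most like those of each member are given as a description, since libraries of an organ share their tissue. With Pearson's r of log2 values, Hk1 was closest to Whrn, Tspan6 and Scml2 (0.996 to 0.993), Hk2 to Tnni3k, Htra3 and Sgca (0.991 to 0.989), and Pfkm to Ppp1r14c, Lix1l and Gpc1 (0.991 to 0.989). Pfkl was closest to Cops8, Lyrm7 and Zfp438 (0.983 to 0.971) and Pfkp to the pseudogene Sms-ps, Nkain1 and Scn4b (0.997 to 0.993). Pklr was closest to Sardh, Erbb3 and Afm (0.998 to 0.997), of which Sardh degrades sarcosine and Afm encodes the liver plasma protein afamin. Pkm was closest to Reep5, Sccpdh and Pkia (0.996 to 0.992). Ldha was closest to Rack1, Txn2 and Bckdha (0.994 to 0.987), and Ldhb to Vwa1, Gulp1 and Oxct1 (0.996 to 0.989), the last of these an enzyme of ketone body use.

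The gene models limit some of these values. In the GENCODE M21 annotation of GRCm38, Hk1 lies at chr10:62268855-62379908 (minus strand), Hk2 at chr6:82725025-82774454 (minus), Pfkm at chr15:98092589-98132451 (plus), Pfkl at chr10:77986947-78010083 (minus) and Pfkp at chr13:6579768-6648777 (minus). Pklr lies at chr3:89136142-89146784 (plus), Pkm at chr9:59656368-59679375 (plus), Ldha at chr7:46841475-46855627 (plus) and Ldhb at chr6:142490249-142507957 (minus). Of the 50-base words in their transcripts, on either strand, other genes shared 34.4% for Pkm, 27.01% for Ldhb, 23.2% for Pklr, 17.1% for Pfkp and 16.6% for Ldha, and at most 2.55% for the other 4. For Pkm, Ldha and Ldhb the sharing genes were mostly or all processed pseudogenes, and for Pklr and Pfkp the overlapping Hcn3 and Pitrm1. Exons of Senp1 and Hk1os overlap those of Pfkm and Hk1, and Hk1os, an antisense gene, had at most 7 reads. No source used here states whether counting used strand or how it treated reads that match several genes. Levels of these genes, and shares that rest on them, are uncertain to that extent.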

How the data were processed

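Total RNA of 8 mouse libraries was sequenced. HISAT2, featureCounts, limma and genome mm10 are named in the submitters' processing notes. Versions, annotation, strand setting and the handling of reads that match several genes are not stated. A deposited table holds, from the authors, counts per 1000000 reads (CPM) on the log2 scale, each count raised by 0.5 and each library size multiplied by a factor of 0.500 to 1.76 per library. These factors were worked out from the values, which then gave whole reads for 100% of them within 1e-06 of a whole number, and equal the TMM factors recomputed from those reads. Totals and the 3-read floor stand in the report. The floor and intervals cover counting error only.

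From these values, genes above 1 CPM in at least 2 libraries (15819) entered a limma model (version 3.58.1, R 4.3.3) of organ plus preparation, with a mean-variance trend, 3 residual and 5.35 prior degrees of freedom. P-values were adjusted over all tested genes by Benjamini-Hochberg for each comparison. The same model gave FFPE minus frozen, each organ minus the mean of the other 3, and organ pairs. The code was tested on simulated data. Shares were computed with Python 3.11.15 from CPM per kilobase of the longest coding transcript in GENCODE M21, with exact (Clopper-Pearson) 95% intervals. Promoter windows of 250 bases are from RefSeq (GRCm38.p6), where 9 of 9 members matched.

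Named genes were all members, the 3 genes most like each, list genes called for FFPE minus frozen, up to 3 per list with the largest organ differences, and other genes of the same enzyme families. Some of these are not reported here. The members and lists were chosen with earlier results of these data known. Alternatives covered normalisation, filters, variance settings, the added constant, transcript length and leaving out each library. 1275 genes without a symbol were kept in the fit.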

Additional observations from a re-analysis of the deposited data

How the results depend on the processing

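Of the single-member results under their alternatives, 760 kept direction and side of the threshold, 28 fell short of it, 6 newly passed and 16 reversed, and of the counts and leading isozymes 109 stayed within their tolerance and 13 moved. The count of members called for FFPE minus frozen, 1 in the main model, was 0 with quantile normalisation, without the variance trend, on log2(CPM + 5), without the organ term and without both brain libraries, and 2 with voom and without the scaling factors. The last 2 were Hk2 (1.10) and Pfkp (0.62), both higher, as were 3652 of the 3725 genes called without the scaling factors. Voom called 1407 of 15819 tested genes, against 535 in the main model. The settings without both brain libraries and without scaling factors were chosen after seeing the data. Leaving out a library gave 0 to 1 called members for FFPE minus frozen, 7 to 9 in brain, 8 to 9 in heart, 5 to 7 in kidney and 8 to 9 in liver, and 13 to 18 differing neighbours. Without scaling factors the FFPE minus frozen values of Hk1, Pfkm, Pfkl and Pkm reversed to 0.33, 0.10, 0.20 and 0.14, those of Pfkp and Ldha in heart to -0.012 and -0.20, and that of Pkm in kidney to 0.11. This setting shifts all genes of a comparison alike, so the distances of Hk1, Pfkm, Pfkl and Pkm from the median of all genes stayed at -0.21, -0.44, -0.34 and -0.41. The FFPE minus frozen value of Pklr reversed to -0.026 with quantile normalisation and -0.0083 on log2(CPM + 5), and ranged over -0.034 to 0.43 when a library was left out, negative without either heart library. Without both brain libraries Ldha in heart and kidney reversed to -0.056 and -0.54 and Pkm in kidney to 0.62. With a library left out, Pkm in kidney ranged over -0.28 to 0.0042 and Ldha in kidney over -0.061 to 0.49, both reversed without the frozen kidney library. On log2(CPM + 5), Pklr in kidney was 0.10 and Ldhb in brain 0.29, neither called. Members called higher then numbered 2 instead of 4 in kidney and 4 instead of 5 in brain, beside 2940 and 5424 of 15819 tested genes. The cause of these shifts was not tested, beyond the fewer libraries or changed scale of each setting. Phosphofructokinase was led by Pfkm in 6 libraries, or 4 without length and 7 with the exon union. No paired analysis was possible because each group has 1 library and the labels give no replicate numbers, and organ is already a term of the model. Depth limits the liver values of Hk1, Hk2, Pfkp and Ldhb and the brain and heart values of Pklr.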
